A study of Mus musculus with 16 samples.

Results

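The Serpin gene family was followed in mouse liver with and without HIRA, before and after regeneration. The members were the genes of the count table whose symbol starts with Serpin, without those named as pseudogenes, that held at least 10 read counts over all 16 libraries. This left 41 of 64 family genes, among 23018 genes with that many counts and 55421 gene IDs in all. The other 23 stayed under 10 counts. The intracellular clade B genes were kept in 10 of 28 cases (Serpinb3a and Serpinb5 are among those left out).

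Serpins are proteins that inhibit proteases by a suicide mechanism: the protease cuts an exposed loop, the serpin changes shape, and both stay locked together. The liver secretes many of them into plasma, where they hold neutrophil proteases, clotting factors, plasmin and complement in check. Some members have lost inhibitory activity and instead carry hormones or fold collagen. In the mouse, alpha-1-antitrypsin and antichymotrypsin, encoded by single genes in humans, have each expanded into a set of similar copies.

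HIRA is a chaperone that deposits the histone variant H3.3 outside of DNA replication. Poly-A RNA of male livers was sequenced from control and HIRA KO mice, each before and after regeneration, which gave 4 groups of 4 libraries. HIRA was deleted in hepatocytes with AAV8 carrying a hepatocyte promoter (Tbg), by 2 approaches that contributed 2 libraries each to every group. In the first, HIRA fl/fl mice received AAV8 Tbg-Cre and controls were wildtype mice with the same virus. In the second, wildtype mice received AAV8-Tbg-saCAS9/U6-sgRNA-HIRA, and controls received AAV8-Tbg-saCAS9/U6-sgRNA-Rosa26. All mice were therefore injected with virus, at 6 months of age, and all had part of the liver resected 4 weeks later. The lobes removed at surgery served as the tissue before regeneration, and the liver that had regrown was taken 5 days later at death. Time, lobe and manner of collection changed together and cannot be told apart. Other liver cells kept an intact Hira gene. The columns of the tables give genotype, time and a running number from 1 to 4, but neither mouse nor approach. Libraries are named here by group and that number.

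Total counts per library ran from 15103059 to 21738619. Hira was at 61.4% of the control level in HIRA KO before and at 62.0% after regeneration, with no overlap of the groups at either time (exact two-sided permutation test, p = 0.0286 each, the smallest that 4 against 4 libraries can give). All 8 hepatocyte markers examined were present in every library. HIRA KO libraries 1 and 2, before and after regeneration, stood apart from the other 12 on the second principal component of all genes, at -47.4 to -36.2 against -1.14 to 31.2. Values without these 4 libraries are given beside many of the results.

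The family covered a wide range of levels. Of the 41 members, 7 had a mean of at least 1000 CPM (counts scaled to library size, with TMM factors) over the 16 libraries, 15 at least 100, 23 at least 10 and 30 at least 1, and 11 lay under 1. A chromosome 12 cluster held 21 of the 41 members (GRCm38, chr12:103614786-104414329), among them all alpha-1-antitrypsin and Serpina3 copies. Clade B members lay on chromosomes 1 and 13. Together the family took 3.01% ± 0.540 (SD, n = 4) of all counts in control before regeneration and 2.23% ± 0.178 in HIRA KO. After regeneration it took 2.35% ± 0.584 in control and 1.60% ± 0.511 in HIRA KO. The ranges of the genotypes overlapped at both times.

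**Figure D1:**
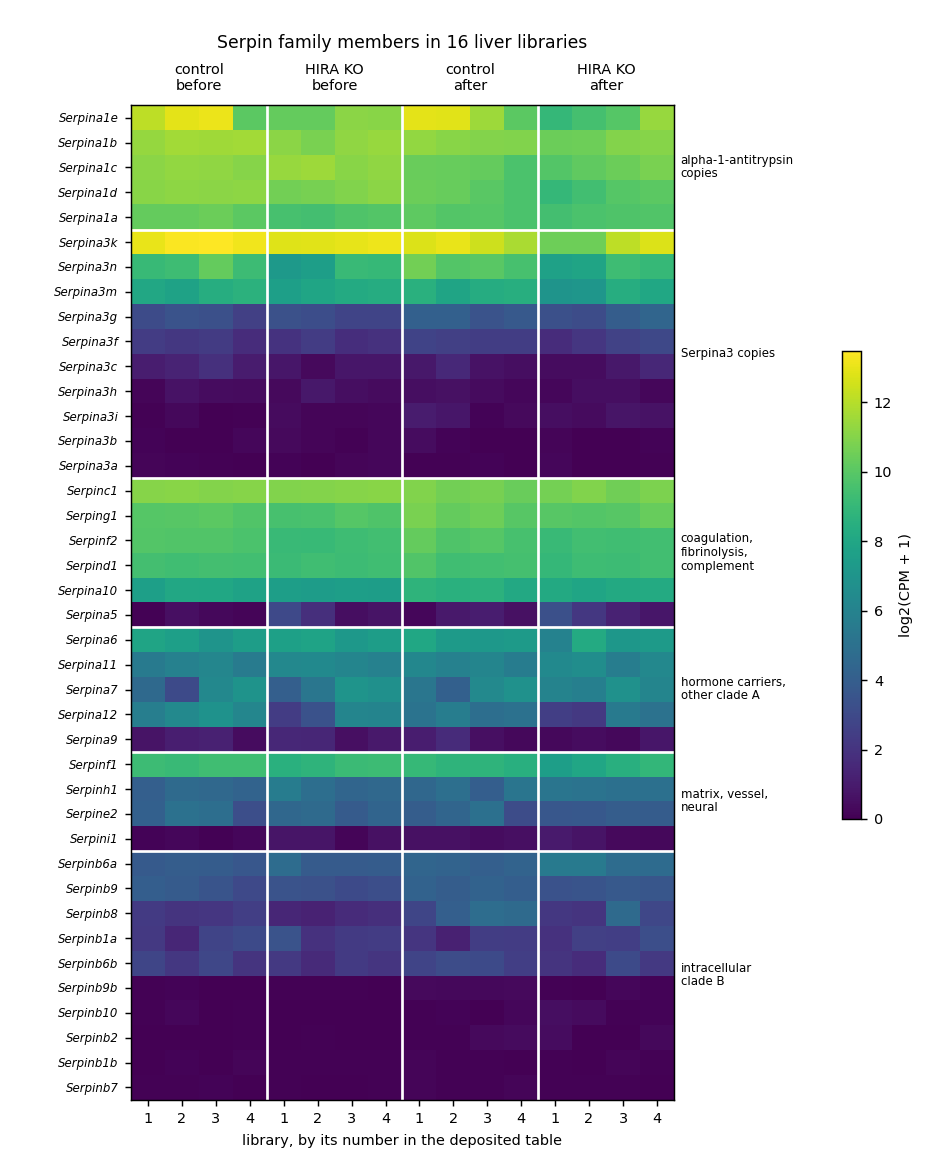
Level of 40 Serpin members in the 16 libraries as log2(CPM + 1), with 1 row per gene grouped by role and 1 column per library grouped by genotype and time. Secreted members of the liver fill the bright rows, and most clade B members the dark rows; Serpina1e, Serpina7 and Serpina12 differ strongly between libraries of the same group.

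Levels of different genes were compared per transcript length, with the deposited FPKM (fragments per kilobase of transcript, scaled to library size). Serpina1c had the highest mean over the 16 libraries, 3817 FPKM (range 2123 to 5293). It was followed by Serpina1e at 3128 (643 to 6953), Serpina1a at 2943 (1818 to 3938), Serpina3k at 2937 (642 to 4704) and Serpina1b at 2688 (1600 to 3386). The ranges of these neighbours over all libraries overlapped throughout, so the ranges alone did not resolve their order. Compared within each library, Serpina1c lay above Serpina1a in all 16. Serpina1d, at 2005 FPKM, and antithrombin (Serpinc1), at 1822 FPKM, came next. C1 inhibitor (Serping1) followed at 521 FPKM (385 to 797), and its range lay under those of Serpinc1 and of every alpha-1-antitrypsin copy but Serpina1e.

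The 5 alpha-1-antitrypsin copies are nearly identical, which limits how reads can be told apart between them. Of the 75-base windows of their annotated transcripts, the share found in no other gene was 33.9% for Serpina1c, 50.7% for Serpina1a, 62.9% for Serpina1d, 80.3% for Serpina1e and 81.0% for Serpina1b. For the Serpina3 members the share was at least 89.0%. The split between copies depended on the unit. Serpina1e made up 23.9% ± 10.6 of the summed FPKM of the copies in control before regeneration (SD, n = 4), but 36.0% ± 17.4 when counts were divided by exon length. Statements on single alpha-1-antitrypsin copies are therefore uncertain, and the copies were also summed.

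Their proximal promoters are shown because the copies are so alike that reads are hard to assign to one of them. RefSeq (GRCm38.p6) gave promoters for 32 of the 41 members. Serpina3h, Serpina3k, Serpina3m, Serpina10, Serping1, Serpina6, Serpina9 and Serpinb1a were among those with no entry. The windows below hold 110 bases 5′ to 3′, on the minus strand, and end 2 to 64 bases before the start that RefSeq annotates. The first capitals, positions 48 to 60 counted from the 5′ end, mark a stretch in which 3 of the copies differ from Serpina1b, and the second, positions 97 to 108, a stretch identical in all. In order, the windows lie at chr12:103863627-103863736, chr12:103738202-103738311, chr12:103904964-103905073, chr12:103773636-103773745 and chr12:103956962-103957071.
Serpina1a: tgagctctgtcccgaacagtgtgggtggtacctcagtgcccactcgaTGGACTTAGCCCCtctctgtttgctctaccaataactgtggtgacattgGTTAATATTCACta
Serpina1b: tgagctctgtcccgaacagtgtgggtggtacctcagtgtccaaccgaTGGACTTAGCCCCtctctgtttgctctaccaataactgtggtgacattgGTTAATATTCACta
Serpina1c: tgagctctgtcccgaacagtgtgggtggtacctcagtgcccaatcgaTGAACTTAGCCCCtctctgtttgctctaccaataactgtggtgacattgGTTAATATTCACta
Serpina1d: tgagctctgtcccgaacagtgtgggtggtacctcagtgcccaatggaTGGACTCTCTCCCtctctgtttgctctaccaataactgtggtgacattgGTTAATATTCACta
Serpina1e: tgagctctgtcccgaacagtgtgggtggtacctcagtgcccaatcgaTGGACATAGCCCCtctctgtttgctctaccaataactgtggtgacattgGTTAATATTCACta

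Set against Serpina1b, the Serpina1a, Serpina1c and Serpina1e windows had 3 differing bases each, and that of Serpina1d had 7. All 4 carried T39C and C44T, upstream of the capitals, where Serpina1a also had A43C and Serpina1d C45G. Within the first capitals, Serpina1c carried G50A, Serpina1e carried T53A, and Serpina1d carried T54C, A55T, G56C and C57T. Both strands of all 32851 promoters in the table, each 250 bases before to 50 after a start, were searched for letters seen here. GTTAATATTCAC was found in 5 promoters, those of the 5 copies. The windows were placed by these bases because all 5 copies share them, so the matches of the copies were fixed in advance. The shorter GTTAAT, contained in it, was in 7.10% of all promoters and in 8 of the 32 members, counted as genes, the other 3 being Serpina3c, Serpina7 and Serpinb8. TGGACTT, chosen after the windows were seen, was in 4.17% of all promoters and in Serpina1a and Serpina1b among the members. These matches describe the letters only.

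The first comparison asked how the family differed between HIRA KO and control livers before and after regeneration. No member passed the threshold in either (edgeR quasi-likelihood test, adjusted p under 0.05), where 0.0391% of all genes tested did so before and 0.491% after regeneration. At an unadjusted p under 0.05 there were 11 members before (2 higher, 9 lower in HIRA KO) and 10 after regeneration (2 higher, 8 lower), against 13.2% and 15.8% of all genes. DESeq2 called 3 members before, Serpina1a and Serpinf2 lower and Serpina5 higher, and 4 after regeneration, Serpina1e, Serpina3n and Serpinf2 lower and Serpinb6a higher. It called 2.49% and 5.93% of all genes it tested. The median log2 fold change of the members was -0.10 before and -0.29 after regeneration, beside 0.01 and 0.02 for all genes. All libraries of both groups were separate in 5 members before regeneration, all lower in HIRA KO (Serpina1a, Serpina3c, Serpina10, Serpinf2 and Serpinb8), where 4.53% of all genes were lower and 3.54% higher in that way. After regeneration 5 were lower (Serpina3n, Serpinf2, Serpinb7, Serpinb9 and Serpinb9b) and 1 was higher (Serpinb6a), beside 4.45% and 3.65% of all genes. In the deposited FPKM the separation also held for Serpina3c and Serpinf2 before, and for Serpina3n, Serpinf2, Serpinb9 and Serpinb6a after regeneration. It did not hold in FPKM for Serpina1a, Serpina10 and Serpinb8 before or for Serpinb7 and Serpinb9b after regeneration.

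**Figure D2:**
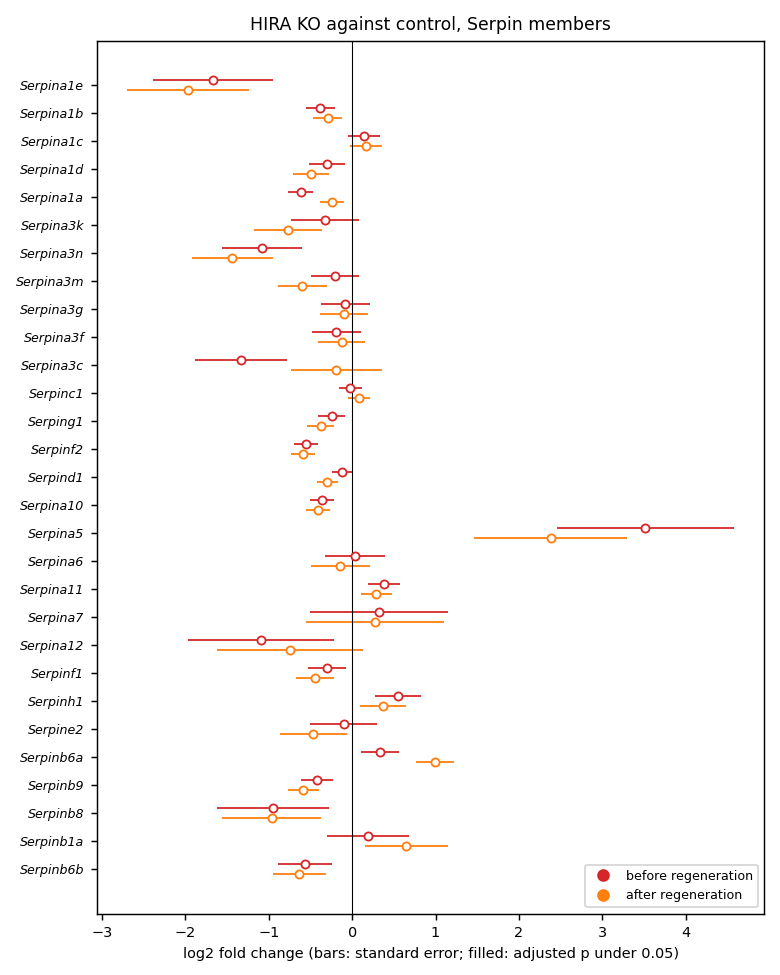
Log2 fold change of HIRA KO against control before (red) and after regeneration (orange) for 29 members with a mean of at least 1 CPM, with bars of 1 standard error; filled points would mark an adjusted p under 0.05, and none is filled. Serpina1e, Serpina3n and Serpina12 sit left of 0 with wide bars, and Serpina5 sits far right at 3.52 and 2.38.

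Alpha-1-antitrypsin is the main plasma inhibitor of neutrophil elastase. Before regeneration Serpina1a (ENSMUSG00000066366.14) was at 1254, 1237, 1417 and 1065 CPM in control libraries 1 to 4 and at 764, 692, 856 and 924 CPM in HIRA KO libraries 1 to 4. Every HIRA KO library was under every control library. Its log2 fold change was -0.62 ± 0.144 (SE), with an adjusted p of 0.119 by edgeR and 0.00130 by DESeq2, and -0.48 without the libraries that stand apart. The deposited FPKM did not show this difference: Serpina1a was at 3108 to 3938 FPKM in control and 3184 to 3429 FPKM in HIRA KO, so the groups overlapped, and limma on log2(FPKM + 0.1) gave -0.09 ± 0.135 (adjusted p = 0.833). After regeneration control libraries held 1134, 942, 959 and 815 CPM and HIRA KO libraries 695, 804, 866 and 886 CPM, and the groups overlapped (log2 fold change -0.24 ± 0.144, edgeR adjusted p = 0.431, and -0.14 without the libraries that stand apart).

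Serpina1e (ENSMUSG00000072849.10) was the copy with the widest spread. Control libraries before regeneration held 4427, 7815, 8645 and 1083 CPM, and HIRA KO libraries 1242, 1269, 2238 and 2145 CPM. After regeneration they held 7712, 7348, 2932 and 1078 CPM in control and 494, 725, 978 and 2667 CPM in HIRA KO. At both times control library 4 lay within or under the range of the HIRA KO libraries, while control libraries 1 to 3 lay above all of them. HIRA KO and control differed by -1.67 ± 0.722 before and -1.97 ± 0.729 after regeneration on the log2 scale (edgeR adjusted p = 0.349 and 0.208). DESeq2 gave an adjusted p of 0.0469 for the latter. Without the libraries that stand apart it was -1.33 and -1.39, and by limma on log2(FPKM + 0.1) -1.003 and -1.65.

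Serpina1b (ENSMUSG00000071178.11) was at 2588, 3145, 2987 and 3133 CPM in control and 2252, 1764, 2397 and 2692 CPM in HIRA KO before regeneration. After regeneration control libraries held 2479, 2129, 2031 and 1961 CPM and HIRA KO libraries 1398, 1471, 2019 and 2123 CPM. The groups overlapped at both times, with HIRA KO library 2 or 1 the lowest. Serpina1b, Serpina1c and Serpina1d had fold changes between -0.50 and 0.16 on the log2 scale at either time. The 5 copies summed to 1 feature gave -0.64 ± 0.287 before (edgeR adjusted p = 0.355) and -0.77 ± 0.288 after regeneration (adjusted p = 0.199).

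**Figure D3:**
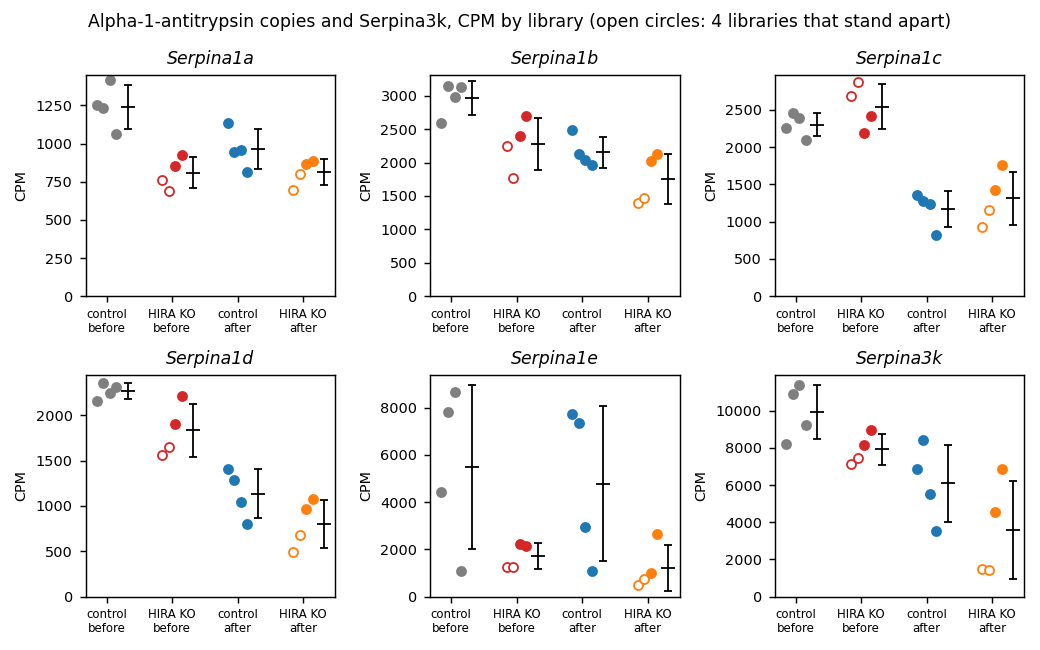
CPM of the 5 alpha-1-antitrypsin copies and of Serpina3k in each library by group, with bars of mean ± SD (n = 4) beside the points, linear axes from 0 and open circles for the HIRA KO libraries that stand apart. Serpina1c and Serpina1d are lower after regeneration in both genotypes without overlap, and Serpina1e spreads from 1083 to 8645 CPM among control libraries before regeneration.

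The Serpina3 copies correspond to human antichymotrypsin, an acute phase inhibitor of chymotrypsin-like proteases. Serpina3k (ENSMUSG00000058207.6) took the most counts of any member, with 8235, 10925, 11378 and 9231 CPM in control and 7119, 7446, 8149 and 8965 CPM in HIRA KO before regeneration. After regeneration control libraries held 6871, 8437, 5513 and 3525 CPM, and HIRA KO libraries 1457, 1451, 4550 and 6847 CPM. The low values after regeneration were those of HIRA KO libraries 1 and 2, and without the libraries that stand apart the log2 fold change after regeneration went from -0.77 to -0.10 (edgeR adjusted p = 0.377 and 0.951). Serpina3m, its neighbour on the same strand with 60 shared exonic bases, had a log2 fold change of -0.60 ± 0.292 after regeneration, and -0.13 without the libraries that stand apart.

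Serpina3n (ENSMUSG00000021091.8), the Serpina3 copy best known from inflammation, was at 539, 620, 1251 and 602 CPM in control and 154, 188, 564 and 516 CPM in HIRA KO before regeneration. After regeneration control libraries held 1566, 923, 1053 and 738 CPM and HIRA KO libraries 206, 233, 616 and 524 CPM. After regeneration every HIRA KO library was under every control library, and at both times libraries 1 and 2 were the lowest. This gave log2 fold changes of -1.08 ± 0.484 before and -1.44 ± 0.487 after regeneration (edgeR adjusted p = 0.362 and 0.173; DESeq2 0.185 and 0.0298). Without the libraries that stand apart it was -0.48 and -0.91 (edgeR adjusted p = 0.890 and 0.435).

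Serpina3c (ENSMUSG00000066361.3), a scarce copy, was at 1.14, 1.51, 2.69 and 1.07 CPM in control and 0.741, 0.267, 0.748 and 0.752 CPM in HIRA KO before regeneration. The groups were separate, but the counts behind them were only 4 to 47 per library, and the log2 fold change of -1.34 ± 0.554 did not pass (edgeR adjusted p = 0.323). Serpina3g and Serpina3f differed by at most 0.19 on the log2 scale at either time. The differences were -0.41 and -0.46 before and 0.34 and 0.33 after regeneration when the libraries that stand apart were left out. Serpina3a, Serpina3b, Serpina3h (annotated as a transcribed pseudogene) and Serpina3i stayed at or under 1.002 CPM in every library.

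The inhibitors of coagulation, fibrinolysis and complement comprise 7 members. Serpinf2 (ENSMUSG00000038224.12, chr11:75431732-75439591), alpha-2-antiplasmin and the main inhibitor of plasmin, was at 917, 891, 904 and 809 CPM in control and 565, 535, 624 and 678 CPM in HIRA KO before regeneration. After regeneration it was at 1241, 872, 978 and 762 CPM in control and 570, 673, 642 and 671 CPM in HIRA KO. Every HIRA KO library was under every control library at both times. On the log2 scale it differed by -0.55 ± 0.145 before and -0.59 ± 0.146 after regeneration, short of the threshold by edgeR (adjusted p = 0.154 and 0.0683) and past it by DESeq2 (0.00845 and 0.00197). After regeneration it also passed narrowly in limma on log2(FPKM + 0.1) (adjusted p = 0.0488) but not on log2(FPKM + 1) (adjusted p = 0.0534). Without the libraries that stand apart the edgeR values were -0.44 and -0.55 (adjusted p = 0.689 and 0.239).

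Serpina10 (ENSMUSG00000061947.10, chr12:103614786-103631444), the protein Z-dependent inhibitor of factor Xa, was lower in HIRA KO by 0.37 and 0.41 on the log2 scale before and after regeneration, also without passing (edgeR adjusted p = 0.305 and 0.172). Antithrombin (Serpinc1) had log2 fold changes of -0.02 ± 0.133 and 0.09 ± 0.133. Heparin cofactor II (Serpind1) had -0.12 ± 0.128 and -0.30 ± 0.128, and C1 inhibitor (Serping1) -0.25 ± 0.159 and -0.38 ± 0.159. None of these passed by either tool.

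Serpina5 (ENSMUSG00000041550.4, chr12:104101113-104106137), the protein C inhibitor, was scarce in these livers. Control libraries held 0.0497, 0.484, 0.229 and 0.118 CPM before regeneration and HIRA KO libraries 6.72, 2.47, 0.408 and 0.626 CPM. After regeneration these were 0.188, 0.917, 1.14 and 0.528 CPM in control and 8.79, 3.55, 1.47 and 0.779 CPM in HIRA KO. The high values were those of HIRA KO libraries 1 and 2 at both times. The difference of 3.52 ± 1.06 on the log2 scale before regeneration (edgeR adjusted p = 0.214, DESeq2 0.00957) became 1.22 ± 0.743 without the libraries that stand apart, and 2.38 ± 0.920 after regeneration became 0.69 ± 0.557. By limma on log2(FPKM + 0.1) the differences were 1.36 ± 0.614 and 1.12 ± 0.614.

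**Figure D4:**
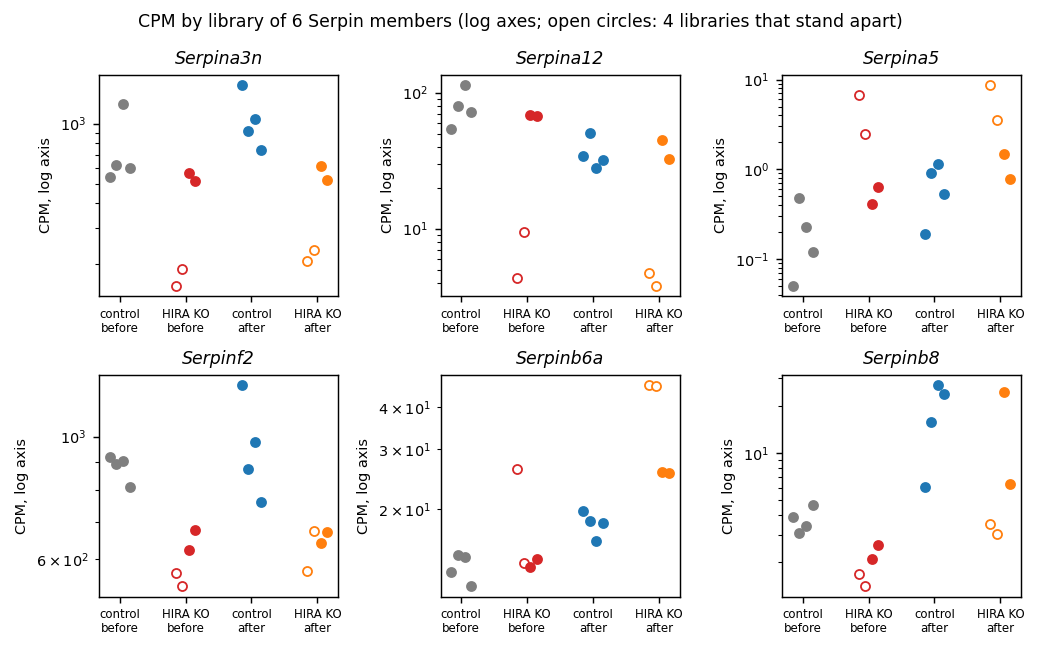
CPM on log axes of Serpina3n, Serpina12, Serpina5, Serpinf2, Serpinb6a and Serpinb8 in each library by group, with open circles for HIRA KO libraries 1 and 2. These libraries hold the lowest values of Serpina3n and Serpina12 and the highest of Serpina5 within HIRA KO, while all HIRA KO libraries lie under the control libraries of their time for Serpinf2.

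Among the hormone carriers and other secreted clade A members, Serpina6 (ENSMUSG00000060807.7) encodes corticosteroid-binding globulin. It was at 235, 193, 124 and 181 CPM in control and 197, 225, 145 and 182 CPM in HIRA KO before regeneration. After regeneration control libraries held 261, 163, 146 and 164 CPM, and HIRA KO libraries 62.7, 301, 141 and 160 CPM. The groups overlapped, with both the lowest and the highest library of all in HIRA KO after regeneration. Its log2 fold change was 0.03 ± 0.355 before and -0.14 ± 0.355 after regeneration (edgeR adjusted p = 0.979 and 0.889). The sign changed when single libraries were left out, and without the libraries that stand apart the values were -0.16 and -0.28.

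Serpina12 (ENSMUSG00000041567.3), which encodes vaspin, a secreted kallikrein inhibitor, was at 53.7, 79.1, 114 and 71.6 CPM in control and 4.34, 9.40, 68.4 and 67.1 CPM in HIRA KO before regeneration. After regeneration it was at 34.3, 50.4, 27.9 and 31.8 CPM in control and 4.71, 3.77, 45.1 and 32.6 CPM in HIRA KO. Libraries 1 and 2 were far under all others at both times, and libraries 3 and 4 lay among the controls. A log2 fold change of -1.10 ± 0.876 before regeneration (edgeR adjusted p = 0.633) was -0.23 without the libraries that stand apart, and -0.75 ± 0.878 after it turned to 0.11.

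Thyroxine-binding globulin (Serpina7) ran from 7.21 to 124 CPM over the libraries, with log2 fold changes of 0.32 ± 0.829 and 0.27 ± 0.827, and 1.02 and 0.54 without the libraries that stand apart. Serpina11 had 0.38 ± 0.189 before and 0.29 ± 0.188 after regeneration, and 0.22 and 0.01 without them. Serpina9 stayed at or under 2.12 CPM. None of these passed.

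Serpinh1 (ENSMUSG00000070436.12), the collagen chaperone HSP47 of the endoplasmic reticulum, was at 16.0, 24.5, 22.4 and 18.8 CPM in control and 48.7, 28.1, 20.3 and 22.2 CPM in HIRA KO before regeneration. HIRA KO libraries 1 and 2 were the highest. A log2 fold change of 0.55 ± 0.279 (edgeR adjusted p = 0.418) was 0.06 without the libraries that stand apart. The summed level of 8 stellate cell and matrix markers, all of them detected in each library, was 201 to 222 CPM in control before regeneration. In HIRA KO before regeneration it was 626, 429, 225 and 236 CPM in libraries 1 to 4, so it was highest in the libraries with the most Serpinh1. Its part in the result was not tested. In bulk tissue, fewer cells of a type and less RNA per cell cannot be told apart.

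PEDF (Serpinf1), a secreted serpin without inhibitory activity, had a log2 fold change of -0.30 ± 0.230 before and -0.45 ± 0.230 after regeneration. Both were near 0, at -0.05 and -0.06, without the libraries that stand apart. Protease nexin-1 (Serpine2) had -0.10 ± 0.401 and -0.47 ± 0.404. Neuroserpin (Serpini1), at under 1 CPM in every library, had 1.97 ± 0.574 before regeneration (edgeR adjusted p = 0.185), from 1 to 3 counts in control libraries and 2 to 13 in HIRA KO libraries.

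Clade B serpins act inside cells and guard them against their own proteases or those of leukocytes. Serpinb6a (ENSMUSG00000060147.15, chr13:33917918-34002794) inhibits cathepsin G among others. Before regeneration it was at 13.0, 14.7, 14.4 and 11.8 CPM in control and 26.2, 13.9, 13.5 and 14.2 CPM in HIRA KO, and after it at 19.8, 18.4, 16.1 and 18.2 CPM in control and 46.5, 46.1, 25.8 and 25.5 CPM in HIRA KO. Before regeneration HIRA KO library 1 alone lay above the rest, and after it all 4 HIRA KO libraries lay above all control libraries. Before regeneration the log2 fold change was 0.33 ± 0.231 (0.04 without the libraries that stand apart). After regeneration it was 0.99 ± 0.228, with an adjusted p of 0.0623 by edgeR and 0.00305 by DESeq2. It passed by edgeR without HIRA KO after library 3 (1.15, adjusted p = 0.0305) or library 4 (1.12, adjusted p = 0.0271), and was 0.50 without the libraries that stand apart (adjusted p = 0.173). With the library number as a block, which joins control and HIRA KO libraries of different mice, it was 0.94 and passed (adjusted p = 0.0191). Of its exons, 762 bases overlap Nqo2 on the opposite strand, and whether counting used strand is not stated. Nqo2 itself differed by 0.01 ± 0.109 on the log2 scale after regeneration.

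Serpinb8 (ENSMUSG00000026315.13, chr1:107590006-107610484), an inhibitor of furin, was at 3.88, 3.07, 3.43 and 4.62 CPM in control and 1.69, 1.40, 2.11 and 2.57 CPM in HIRA KO before regeneration. After regeneration control libraries held 6.08, 15.7, 27.3 and 23.9 CPM and HIRA KO libraries 3.53, 3.02, 24.5 and 6.34 CPM. The groups were separate before but not after regeneration, where HIRA KO library 3 lay among the controls and library 4 above control library 1. In FPKM they overlapped before regeneration as well, at 0.711 to 1.21 in control and 0.739 to 1.11 in HIRA KO, where limma on log2(FPKM + 0.1) gave -0.03 ± 0.592. HIRA KO and control differed by -0.95 ± 0.670 before and -0.97 ± 0.592 after regeneration on the log2 scale (edgeR adjusted p = 0.581 and 0.463). Without HIRA KO after library 3 the latter was -2.08 and passed (adjusted p = 0.0356). Without the libraries that stand apart the values were -0.68 and -0.24.

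Serpinb9, which inhibits granzyme B, had a log2 fold change of -0.42 ± 0.192 before and -0.59 ± 0.189 after regeneration (edgeR adjusted p = 0.362 and 0.141). Serpinb6b had -0.56 ± 0.325 and -0.64 ± 0.317, and Serpinb1a, an inhibitor of neutrophil proteases, 0.19 ± 0.491 and 0.65 ± 0.495. Serpinb1a had -0.16 and 0.97 when the libraries that stand apart were left out. Serpinb1b, Serpinb2, Serpinb7, Serpinb9b and Serpinb10 stayed under 1 CPM in every library.

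The second comparison asked what regeneration did to the family within each genotype. In control livers 6 members passed the threshold (edgeR quasi-likelihood test), where 10.2% of all genes did. Serpina10, Serpinb8, Serpina3i and Serpini1 were higher after regeneration, and Serpina1c and Serpina1d were lower, beside 6.04% and 4.17% of all genes. In HIRA KO 6 members passed, where 12% of all genes did. Serpina10, Serpinb8, Serpinb6a and Serpinb10 were higher, and Serpina1c and Serpina1d lower, beside 6.48% and 5.53% of all genes. At an unadjusted p under 0.05 there were 15 members in control and 11 in HIRA KO, against 23.5% and 27.4% of all genes. The median log2 fold change of the members was 0.13 in control and 0.06 in HIRA KO, beside 0.00 and 0.02 for all genes. In 7 members the control libraries after regeneration were all higher than those before, and in 6 all lower, beside 10% and 8.98% of all genes. In HIRA KO this held for 3 and 4 members, beside 8.61% and 7.45%. DESeq2 called 11 members in control and 8 in HIRA KO, against 18.7% and 20.2% of the genes it tested. Without the libraries that stand apart edgeR called 14 members in control, whose libraries were all kept, and 5 in HIRA KO. Over all genes this setting called 3784 in control and 2195 in HIRA KO, in place of 2350 and 2764. The members gained in control were Serpina1b, Serpina3g, Serpina3k, Serpina12, Serping1, Serpinb6a, Serpinb9b and Serpinf1. In HIRA KO Serpina3f (1.21) and Serpina3g (1.58) were gained, and Serpina1c, Serpinb8 and Serpinb10 were lost. The tables do not tie libraries to mice, so these tests were unpaired.

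**Figure D5:**
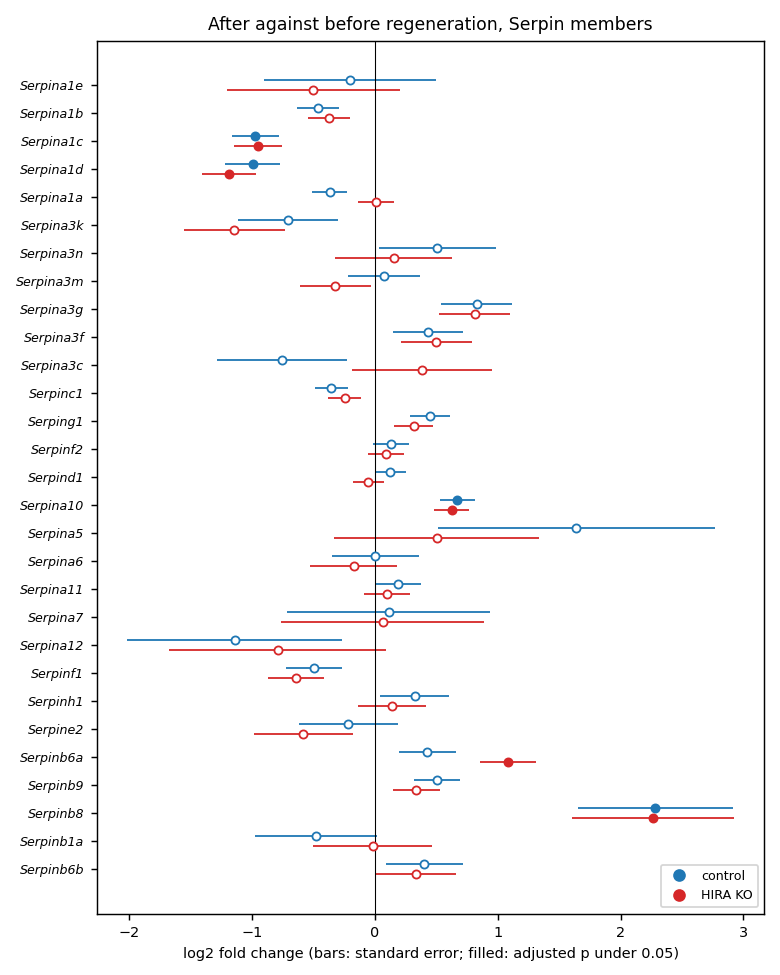
Log2 fold change after against before regeneration in control (blue) and HIRA KO (red) for 29 members with a mean of at least 1 CPM, with bars of 1 standard error and filled points for an adjusted p under 0.05. Serpina1c and Serpina1d are filled left of 0 and Serpina10 and Serpinb8 right of 0 in both genotypes, and Serpinb6a is filled in HIRA KO, at 1.08 beside 0.43 in control.

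Serpina1c (ENSMUSG00000079015.2) fell in both genotypes. Control libraries held 2262, 2458, 2399 and 2100 CPM before and 1354, 1280, 1240 and 819 CPM after regeneration. HIRA KO libraries held 2688, 2873, 2187 and 2425 CPM before and 924, 1159, 1420 and 1757 CPM after it. No library after regeneration reached any library before it. On the log2 scale it fell by 0.97 ± 0.193 in control and by 0.95 ± 0.193 in HIRA KO (edgeR adjusted p = 0.00399 and 0.00437). Without the libraries that stand apart the change in HIRA KO was -0.54 ± 0.211 and did not pass (adjusted p = 0.123).

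Serpina1d (ENSMUSG00000071177.4) fell as well. Control libraries held 2156, 2353, 2243 and 2313 CPM before and 1412, 1280, 1042 and 805 CPM after regeneration, and HIRA KO libraries 1561, 1651, 1903 and 2217 CPM before and 493, 680, 966 and 1076 CPM after it. The groups were again separate in both genotypes. Its log2 fold change was -0.9979 ± 0.220 in control and -1.19 ± 0.221 in HIRA KO (edgeR adjusted p = 0.00746 and 0.00249). Both copies passed in each of the 8 fits per genotype that left out 1 library.

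The other alpha-1-antitrypsin copies did not pass by edgeR. In control and HIRA KO, Serpina1a had log2 fold changes of -0.37 ± 0.144 and 0.01 ± 0.144, Serpina1b of -0.46 ± 0.170 and -0.38 ± 0.170, and Serpina1e of -0.20 ± 0.703 and -0.50 ± 0.705. DESeq2 called Serpina1a and Serpina1b lower in control (adjusted p = 0.0292 and 0.0240). In HIRA KO limma on log2(FPKM + 0.1) called both lower, at -0.56 ± 0.135 and -0.52 ± 0.134 (adjusted p = 0.0152 and 0.0213), so that in FPKM all copies but Serpina1e passed there. By the same fit Serpina1c and Serpina1d passed in control at -0.64 ± 0.159 and -0.68 ± 0.171, smaller than from counts. The 5 copies summed in counts gave -0.48 ± 0.287 in control and -0.62 ± 0.287 in HIRA KO (edgeR adjusted p = 0.335 and 0.172). No change of the summed counts was called. In HIRA KO the summed FPKM of the copies was 14670 to 16300 before and 7082 to 12694 after regeneration, without overlap. In control it was 14574 to 21926 before and 9544 to 17619 after regeneration, and the groups overlapped. The summed FPKM was not tested. Serpina1c and Serpina1d are the copies for which 33.9% and 62.9% of transcript windows were found in no other gene.

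Of the Serpina3 members, Serpina3k had log2 fold changes of -0.71 ± 0.408 in control and -1.15 ± 0.412 in HIRA KO (edgeR adjusted p = 0.324 and 0.0824). Serpina3n, in contrast to the direction of Serpina3k, had 0.51 ± 0.479 and 0.15 ± 0.478, and neither passed. Serpina3g had 0.83 ± 0.290 and 0.81 ± 0.291 (adjusted p = 0.0842 and 0.0824). Serpina3i passed in control in counts, but from 0 to 4 counts per library before to 2 to 16 after regeneration, and the call was kept in 3 of 8 fits that left out 1 library. In FPKM the groups overlapped, with 0.847 to 1.49 before and 0.832 to 1.37 after regeneration, and limma on log2(FPKM + 0.1) gave -0.07 ± 0.398 (adjusted p = 0.964).

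Serpina10 rose in both genotypes, from 190, 274, 258 and 217 CPM to 435, 378, 403 and 279 CPM in control and from 186, 176, 188 and 179 CPM to 291, 242, 292 and 298 CPM in HIRA KO. No library after regeneration overlapped with those before it, and the 4 HIRA KO libraries at each time lay close together, apart from a lower library 2 after regeneration. The change was 0.67 ± 0.144 in control and 0.62 ± 0.144 in HIRA KO on the log2 scale (edgeR adjusted p = 0.00640 and 0.00968). The call held in all 8 fits per genotype that left out 1 library, and in the 10 other settings tried.

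No other inhibitor of coagulation, fibrinolysis or complement passed by edgeR. DESeq2 called Serpinc1 lower (adjusted p = 0.00518) and Serping1 higher (0.0219) in control. Limma on log2(FPKM + 0.1) called Serping1 higher in both genotypes, at 0.56 ± 0.125 and 0.41 ± 0.125 (adjusted p = 0.0116 and 0.0449), as did edgeR in control without the libraries that stand apart (0.0482). In control and HIRA KO, Serping1 had log2 fold changes of 0.45 ± 0.159 and 0.31 ± 0.159, Serpinc1 of -0.36 ± 0.133 and -0.25 ± 0.133, Serpinf2 of 0.13 ± 0.145 and 0.09 ± 0.145, and Serpind1 of 0.12 ± 0.128 and -0.06 ± 0.128. Serpina5 had 1.64 ± 1.13 and 0.50 ± 0.836, with wide errors. Serpina6 gave 0.00 ± 0.355 and -0.17 ± 0.356, and Serpina12 -1.14 ± 0.876 and -0.79 ± 0.880. Without the HIRA KO libraries that stand apart, which also enter the shared estimate of the spread, Serpina12 passed in control at the same -1.14, with an error of 0.252 (edgeR adjusted p = 0.0126).

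Serpinb8 passed in both genotypes in counts, with the library values given above. In control all 4 libraries after regeneration were above all before it, and likewise in HIRA KO. Its log2 fold change was 2.28 ± 0.628 in control and 2.26 ± 0.660 in HIRA KO (edgeR adjusted p = 0.0347 and 0.0418). The call was fragile. In control it was kept only without control after library 1 (2.57, adjusted p = 0.0180), and each other library left out gave an adjusted p of at least 0.0544 and up to 0.0914. In HIRA KO it was kept without library 1, 2 or 4 after regeneration and lost without any library before regeneration or without library 3 after it, when the change was 1.14 (adjusted p = 0.120). It was also lost without the libraries that stand apart (2.72, adjusted p = 0.0782), with the library number as a block (1.83, adjusted p = 0.0723) and by limma on log2(FPKM + 0.1) (0.998, adjusted p = 0.304).

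Serpinb6a rose in HIRA KO, with a log2 fold change of 1.08 ± 0.229 (edgeR adjusted p = 0.00695), and kept the call in each of the 8 fits that left out 1 library, but lost it with only the groups compared (adjusted p = 0.0614). The lowest HIRA KO library after regeneration, 25.5 CPM, was under the highest before it, 26.2 CPM, which was library 1. In control the change was 0.43 ± 0.231 and did not pass (adjusted p = 0.289), although all 4 libraries after regeneration were above those before. It passed in control at the same value, with an error of 0.105, without the HIRA KO libraries that stand apart (adjusted p = 0.00966). Nqo2 on the opposite strand fell in control (-0.40 ± 0.109, adjusted p = 0.0252) and had -0.25 ± 0.109 in HIRA KO.

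Serpinb10, annotated as a polymorphic pseudogene that shares 291 exonic bases with Serpinb2, had no count in the 4 HIRA KO libraries before and 19 counts over those after regeneration. Against a floor of 3 counts over the group this was at least 4.89-fold higher. The counts after regeneration were 9, 7, 1 and 2 in libraries 1 to 4, so most lay in the libraries that stand apart. The call (edgeR adjusted p = 0.0280) was kept in 3 of 8 fits that left out 1 library. It was lost without the libraries that stand apart (edgeR adjusted p = 0.336). Serpinb9 had log2 fold changes of 0.50 ± 0.189 in control and 0.34 ± 0.192 in HIRA KO and Serpinb6b 0.40 ± 0.316 and 0.33 ± 0.325, none past the threshold. The summed level of 8 Kupffer cell and macrophage markers, all detected in every library, was 174 to 450 CPM before and 701 to 898 CPM after regeneration in control, and 227 to 266 CPM and 728 to 1076 CPM in HIRA KO. Every library after regeneration was above every library before it, and the part of these cells in the change of the clade B members was not tested. The 5 proliferation markers were likewise at 3.61 to 18.7 CPM before and 33.4 to 248 CPM after regeneration. Neuroserpin (Serpini1) rose in control from 1 to 3 counts per library to 7 to 10, and its call was lost in all 8 fits that left out 1 library. Serpinf1 had -0.50 ± 0.230 and -0.65 ± 0.230, and Serpine2 and Serpinh1 had no change past the threshold in either genotype.

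The third comparison asked whether the effect of HIRA loss was the same at both times, by the interaction of genotype and time. No member passed (edgeR; 0% of all genes did), and the smallest adjusted p among the members was 0.626, for Serpinb10. At an unadjusted p under 0.05 there were 2 members, Serpinb10 and Serpini1, against 6.81% of all genes. DESeq2 called no member and 67 genes in all, 0.424% of those it tested. Serpinb6a, which passed after against before regeneration in HIRA KO but not in control, had an interaction of 0.66 ± 0.324 on the log2 scale (edgeR adjusted p = 0.740), so its regeneration effects were not shown to differ between genotypes. For Serpina1c, Serpina1d and Serpina10 the interaction was 0.02 ± 0.271, -0.19 ± 0.308 and -0.05 ± 0.203. Serpina6 had -0.17 ± 0.503 (adjusted p = 0.975).

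Genes that work with the serpins were read from the same fits. Of 28 proteases that serpins inhibit, none passed between genotypes at either time. After regeneration 3 were higher in control, the neutrophil proteases Elane, Ctsg and Prtn3, and 2 were lower, plasma kallikrein (Klkb1, -0.86 ± 0.233) and protein C (Proc, -0.51 ± 0.141). Of all genes 6.04% were called higher and 4.17% lower there. Elane and Ctsg were scarce, at 0 counts in all control libraries before and at most 0.501 and 0.188 CPM after regeneration. Prtn3 was at 0.118 to 1.77 CPM in control before and 11.47 to 40.53 CPM after regeneration. The summed level of 7 neutrophil markers, Elane among them, was 1.00 to 6.27 CPM in the libraries before and 6.99 to 17.1 CPM in those after regeneration. Prtn3 lay above this sum in every control library after regeneration. The part of neutrophils in these changes was not tested. In HIRA KO Prtn3 and granzyme B (Gzmb, 1.78 ± 0.547) were higher and none was lower, beside 6.48% and 5.53% of all genes. Prothrombin (F2), the precursor of the protease that antithrombin inhibits, had log2 fold changes between -0.17 and -0.10 in all of these comparisons.

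Of 12 cofactors and clearance receptors, Lrp1, which removes serpin-protease complexes from the circulation, was the only one past the threshold between genotypes. It was lower in HIRA KO after regeneration (-0.85 ± 0.183, edgeR adjusted p = 0.0464). That call was lost with only the groups compared (adjusted p = 0.186), without the libraries that stand apart (-0.80, adjusted p = 0.175) and by limma on log2(FPKM + 0.1) (-0.44, adjusted p = 0.181). With single libraries left out it was kept only without HIRA KO after library 4 (-0.90, adjusted p = 0.0337). After against before regeneration in control, thrombomodulin (Thbd) was higher (0.90 ± 0.266) and the asialoglycoprotein receptor subunit Asgr2 lower (-0.47 ± 0.132).

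Of 16 genes listed as regulators of serpin genes, transcription factors except for Socs3, none passed between genotypes. Cebpa (-0.91 ± 0.214) and Cebpd (-0.70 ± 0.219) were lower after regeneration in control, and Nr3c1, the glucocorticoid receptor (-0.30 ± 0.0925), in HIRA KO. Whether these changes differed between genotypes was covered by the interaction, which none of the 16 passed.

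Other acute phase genes, which the liver makes in inflammation, were also listed. Of 19, 10 were higher after regeneration in control and 8 in HIRA KO and none was lower, where 6.04% and 6.48% of all genes were higher. The medians were 1.12 and 0.96 on the log2 scale beside 0.00 and 0.02 for all genes. Orm2 rose by 4.55 ± 0.698 and 4.27 ± 0.694, Lcn2 by 4.17 ± 1.10 and 4.91 ± 1.15 and haptoglobin (Hp) by 1.23 ± 0.358 in both, each pair given for control and then HIRA KO. Between genotypes none of the 19 passed, with medians of -0.40 before and -0.76 after regeneration.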

How the data were processed

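Per the labels and the methods of the study, the authors used STAR to align reads of NEBNext directional libraries to mm10 and HOMER to count them per gene, while the submitters' processing notes name HTSeq and Cufflinks. The strand setting is not given in the sources used here. The deposited count table holds whole-number counts. The deposited FPKM, whose tool is not stated, were used for levels between genes, with empty cells read as 0. Between 4613 and 5667 genes per library had 0 counts but a filled FPKM cell. Serpina3a in HIRA KO after library 2, for example, had 0 counts and 0.468 FPKM, so the FPKM are not these counts divided by length.

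Genes with at least 10 counts in total were tested (23018). TMM factors and 1 model with 4 group means over all 16 libraries were used in edgeR 4.0.16 (R 4.3.3, quasi-likelihood test with robust = TRUE). P-values were adjusted over these genes (Benjamini-Hochberg), and calls were made at an adjusted p under 0.05. Standard errors are approximate, derived from the fold change and its F statistic. Alternatives were DESeq2 1.42.0, its size factors, other filters, only the groups compared, without the libraries that stand apart, copies summed, a block on the library number, limma 3.58.1 on log2(FPKM + 1) and log2(FPKM + 0.1), and each library left out. Library totals (15103059 to 21738619 counts) set the precision. No pair of libraries within a group was a duplicate by a chi-square test of counts. In the reported fit, p-values set each difference against the spread between libraries within groups, estimated over all 4 groups together. Each group mixes both deletion approaches.

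Library values are given for the 5 members with the highest mean FPKM, for called members with at least 1 CPM, for the 3 higher and 3 lower members with the largest genotype difference at each time, for Serpina6, and for Serpina1a, Serpinf2 and others chosen after their values were seen. A member that this rule names and some genes of the lists are not reported here, though counts and medians include them. The members and gene lists were chosen with earlier results of these data known. Coordinates are from GENCODE M21 (GRCm38), whose IDs equalled 54673 of the 55421 deposited ones. The fit was tested on simulated counts with independent libraries and the same relative spread for every gene. That test does not cover libraries that stand apart or genes of uneven spread.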

Additional observations from a re-analysis of the deposited data

Results flagged for a closer look

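Among 15 named members, 60 groups of 4 libraries were searched for a library whose gap to its nearest neighbour took up most of the range of its group (Dixon's test). It found 6, and chance alone gives about 1 in 20 groups. Of these, 3 lay in HIRA KO libraries that stand apart: Serpina10 at 242 CPM in HIRA KO after library 2 (others 291 to 298), Serpina3c at 0.267 CPM in HIRA KO before library 2 (others 0.741 to 0.752), and Serpinb6a at 26.2 CPM in HIRA KO before library 1 (others 13.5 to 14.2).

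The remaining 3 lay elsewhere. Serpina3n was at 1251 CPM in control before library 3 (others 539 to 620). Serpina6 was at 261 CPM in control after library 1 (others 146 to 164). Serpinb8 was at 24.5 CPM in HIRA KO after library 3 (others 3.02 to 6.34), the library whose removal changed its call in HIRA KO.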

How the results depend on the processing

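The limits are few libraries per group, near-identical copies, and time, lobe and collection that changed together. Serpina10 passed in both genotypes after against before regeneration in every setting, while counts and FPKM disagreed on several members, as given with them. Before regeneration, 3 members passed between genotypes with DESeq2 and 0 in each other setting. After regeneration, 4 passed with DESeq2, 1 each with edgeR's filterByExpr (Serpinb6a) and with limma on log2(FPKM + 0.1) (Serpinf2), and 0 to 2 when 1 library was left out. For after against before in control, where 6 passed, 12 passed with only the groups compared, 11 with DESeq2, 14 without the HIRA KO libraries that stand apart and 3 with copies summed, which removes Serpina1c, Serpina1d and Serpina3i as single genes. Over all genes these settings called 3167, 3274, 3784 and 2357 in that order. Leaving out 1 library gave 3 to 5 members, with 3 without control before library 3 or 4 or control after library 2. In HIRA KO, where 6 passed, 3 passed with only the groups compared, beside 1340 of all genes, and Serpinb6a was lost (edgeR adjusted p = 0.0614). With 1 library left out 4 to 8 members passed. No setting called a member in the interaction. Over all genes the calls ran from 1 to 382 before (9 in the reported fit) and 0 to 910 after regeneration (113), 1519 to 3784 (2350) in control, 1340 to 4097 (2764) in HIRA KO, and 0 to 67 (0) for the interaction. The cause of these differences was not tested.

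With the library number as a replicate block, 0 members passed before and 1 after regeneration (Serpinb6a) between genotypes, and 11 in control and 9 in HIRA KO after against before regeneration. Over all genes it called 104 before and 565 after regeneration between genotypes, and 3525 in control and 4097 in HIRA KO after against before. Between genotypes the block gained Serpinb6a. After against before it gained Serpina1b, Serpina5, Serpina12, Serpinf1 and Serping1 in control. In HIRA KO it gained Serpina3k, Serpina9, Serpine2 and Serpinf1 and lost Serpinb8. Correlations of same-numbered libraries before and after were 0.0805 to 0.377 in control and 0.386 to 0.587 in HIRA KO, with 7 of 8 libraries before regeneration closest to their own number after it, a hint that the numbers pair libraries within a genotype. Between genotypes the block joined libraries of different mice. Same-numbered control and HIRA KO libraries correlated at 0.197 to 0.305 before and 0.0132 to 0.240 after regeneration. The reported fit has no block because the number is in no label and 1 control pair was under 0.1.

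The direction turned for Serpina6, which passed in no setting. Between genotypes before regeneration its log2 fold change was -0.16 without the libraries that stand apart, and ran from -0.11 to 0.18 with 1 library left out. After regeneration it ran from -0.60 to 0.13, in HIRA KO after against before from -0.63 to 0.10, and in the interaction from -0.63 to 0.10. In control after against before it was -0.00082 without the count filter and -0.00037 with the block, and ran from -0.22 to 0.14. With counts per kilobase of exon in place of FPKM, the share of Serpina1e among the alpha-1-antitrypsin copies was 36.0% in control and 18.7% in HIRA KO before, and 43.5% and 19.5% after regeneration, in place of 23.9%, 13.2%, 28.1% and 12.6%.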
